A study of Mus musculus with 6 samples.

Results

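The cornified envelope genes described here are 8 genes, Sprr1a, Sprr1b, Sprr3, Ivl, Ppl, Evpl, Tgm1 and Cnfn, among 19938 genes measured in bladders of mouse embryos. They were chosen by symbol from the array annotation, as precursors of the envelope, plakins and the transglutaminase that joins them, with their differences between the genotypes on these arrays already known. A gene with several array features was to be represented by the one selected on its highest mean reading over the 6 arrays, but each of the 8 genes had 1 feature, so that step removed nothing. Bladders were collected at E14.5, in days of gestation, from 2 genotypes, with 3 samples each, and every sample was a pool of 2 whole bladders. One genotype, called Klf5-deleted below, was Klf5 ∆/∆, with the gene of the zinc-finger transcription factor Klf5 deleted on both alleles. The other, the control, was Klf5+/+ShhGfpCre+, with intact Klf5 and a Cre recombinase made in cells that express Shh, among them the bladder epithelium. The label of the Klf5-deleted embryos does not name a Cre allele; the deletion was taken to be made by the same ShhGfpCre and so to lie in the epithelium, while muscle, connective tissue, vessels and nerves keep Klf5. Nothing in the labels says whether the pools came from separate litters, so the p-values measure the spread between these pools. The study asked what Klf5 contributes to the maturation of the urothelium, the stratified epithelium that lines the bladder.

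The cornified envelope is the protein shell that replaces the plasma membrane of the outermost cells of the epidermis and other squamous epithelia. Periplakin and envoplakin assemble under the membrane near desmosomes, involucrin is laid down on them, and small proline-rich proteins are then joined in as bridges by transglutaminase enzymes, which link glutamine to lysine residues. The urothelium does not cornify, but stratified epithelia that stay moist also make several of these precursors, and involucrin, loricrin, filaggrin and most small proline-rich proteins are coded in one gene cluster, the epidermal differentiation complex.

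Of the 8 genes, 5 fell in the Klf5-deleted bladders: Sprr1a, Ivl, Ppl, Tgm1 and Evpl. The other 3, Sprr1b, Cnfn and Sprr3, read lower but did not pass the threshold, an adjusted p of 0.05 by limma with Benjamini-Hochberg adjustment over all 19938 genes. Over all genes 1.98% passed this threshold, 1.59% that fell (318 genes) and 0.386% that rose (77 genes); with arrays centred on their medians the split was 273 against 116, and centred on housekeeping genes it was 274 against 128, with the same 5 members called. Sprr1a, Ivl and Ppl fell at least 2-fold, as did 0.527% of all genes. For all 8 genes every Klf5-deleted array lay below every control array, a pattern that 11.8% of all genes showed; groups that did not overlap in either direction made up 20.5%. The median log2 difference of the 8 genes was -0.75, and that of all genes was -0.0099. The 8 genes were chosen with results of these arrays known, so these counts describe them and are no test of the group.

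The promoters of the members that the results turn on are shown because Sprr1a, Ivl, Sprr1b and Sprr3 are neighbours on chromosome 3 and their measured differences ranged widely, with Sprr1b and Sprr3 near the floor of the array. The sequences are from RefSeq on GRCm38.p6, read 5′ to 3′ on the strand of the gene, and run from 250 bases before to 50 bases after the annotated start. They were available here for 6 of the 8 genes; of the 2 starts listed for Tgm1 the upstream one is printed. Capitals mark matches, on either strand, to CACCC and GGGCGG, letters known to be bound by Krüppel-like and Sp factors, and to TGANTCA, the letters of AP-1 sites.
Sprr1a (chr3:92485832-92486131, minus strand): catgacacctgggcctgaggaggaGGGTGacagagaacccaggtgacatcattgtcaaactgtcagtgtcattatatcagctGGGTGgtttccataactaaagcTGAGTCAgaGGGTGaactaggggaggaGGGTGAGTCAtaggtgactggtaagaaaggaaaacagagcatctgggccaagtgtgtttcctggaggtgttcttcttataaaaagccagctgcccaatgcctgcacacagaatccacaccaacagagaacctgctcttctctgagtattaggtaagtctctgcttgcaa
Ivl (chr3:92573686-92573985, minus strand): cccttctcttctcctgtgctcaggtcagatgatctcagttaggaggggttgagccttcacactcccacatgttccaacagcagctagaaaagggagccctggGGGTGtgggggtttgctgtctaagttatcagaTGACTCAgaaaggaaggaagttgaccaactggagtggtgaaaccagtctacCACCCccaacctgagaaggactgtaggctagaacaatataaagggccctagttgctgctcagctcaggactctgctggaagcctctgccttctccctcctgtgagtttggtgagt
Sprr1b (chr3:92438730-92439029, minus strand): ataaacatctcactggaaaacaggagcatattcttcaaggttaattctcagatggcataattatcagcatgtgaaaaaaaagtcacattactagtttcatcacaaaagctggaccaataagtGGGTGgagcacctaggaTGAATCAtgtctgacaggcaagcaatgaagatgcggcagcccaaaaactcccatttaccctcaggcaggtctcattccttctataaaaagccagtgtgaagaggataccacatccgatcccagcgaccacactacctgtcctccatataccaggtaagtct
Sprr3 (chr3:92458671-92458970, minus strand): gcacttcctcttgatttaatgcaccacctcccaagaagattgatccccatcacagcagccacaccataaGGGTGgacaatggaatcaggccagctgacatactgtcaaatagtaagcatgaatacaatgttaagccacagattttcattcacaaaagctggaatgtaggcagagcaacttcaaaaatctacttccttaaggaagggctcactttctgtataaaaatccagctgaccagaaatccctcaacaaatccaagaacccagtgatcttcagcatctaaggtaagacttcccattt
Tgm1 (chr14:55713443-55713742, minus strand): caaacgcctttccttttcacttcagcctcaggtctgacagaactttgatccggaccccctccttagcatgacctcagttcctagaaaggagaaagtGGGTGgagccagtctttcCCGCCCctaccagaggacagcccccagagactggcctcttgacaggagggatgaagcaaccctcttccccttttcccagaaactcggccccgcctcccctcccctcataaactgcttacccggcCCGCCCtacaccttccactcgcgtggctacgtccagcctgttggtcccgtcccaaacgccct
Cnfn (chr7:25369675-25369974, minus strand): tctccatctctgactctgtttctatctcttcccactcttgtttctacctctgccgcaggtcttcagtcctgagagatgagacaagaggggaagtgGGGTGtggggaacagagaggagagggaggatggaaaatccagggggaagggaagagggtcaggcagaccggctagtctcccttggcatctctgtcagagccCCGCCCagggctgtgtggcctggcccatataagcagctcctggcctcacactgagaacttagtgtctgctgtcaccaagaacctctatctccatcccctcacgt

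The Sprr1a window held 4 matches to CACCC and 2 to TGANTCA, at -146 to -140 and at -116 to -110 from the start, the second of which overlapped a CACCC match. The Ivl window held 2 matches to CACCC and 1 to TGANTCA, also at -116 to -110, and Sprr1b held 1 of each. Sprr3 held 1 match to CACCC and none to TGANTCA. All 4 windows of this chromosome 3 group held TATAAA, left in small letters, which occurred in 13.6% of all 32851 windows of the same length, and none of the 4 held GGGCGG. The Tgm1 window held 2 matches to GGGCGG and 1 to CACCC, and Cnfn held 1 of each. Over all windows 57.5% held CACCC, 35.7% held GGGCGG and 7.81% held TGANTCA. A match is a description of letters and shows no binding.

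Klf5 itself, the targeted gene, read 10.12, 10.34 and 10.23 on the Klf5-deleted arrays and 10.84, 10.63 and 10.97 on the control arrays (log2 expression values made by RMA, here and below). The groups did not overlap, and the difference was -0.59 (SE 0.10, adjusted p = 0.0381 by limma). This call was lost without any single array other than control 2, with adjusted p between 0.0847 and 0.156. Which exons the feature covers was not analysed here. Although the source is labelled as urothelium, whole bladders were extracted: Acta2, the smooth muscle actin gene, read 14.02 ± 0.04 (SD, n = 3) without Klf5 and 14.11 ± 0.05 (SD, n = 3) in controls, and the urothelial plaque gene Upk2 read 8.30 ± 0.07 (SD, n = 3) and 11.49 ± 0.28 (SD, n = 3). Acta2 had the smallest difference of 6 smooth muscle markers, and Upk2 had the largest fall of 8 urothelial markers. All 6 muscle markers read lower without Klf5, with a median difference of -0.28, and none passed. Placental and decidual transcripts were present on arrays of both groups: the mean of 10 such genes was 7.51, 8.93 and 5.53 on the Klf5-deleted arrays and 5.40, 9.999 and 6.44 on the control arrays. The trophoblast gene Tpbpa was highest on control 2, at 13.13, and read 10.34 on Klf5-deleted 2, while Gzmd, a granzyme gene of decidual cells, was highest on Klf5-deleted 2, at 10.80, and read 9.83 on control 2. Their part in the results was not tested. As a gauge of readings without expression, 1027 olfactory receptor genes, not known to be expressed in bladder, had a 95th percentile between 6.74 and 6.87 on the 6 arrays; probes differ in affinity, so this gives only a rough floor.

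**Figure D1:**
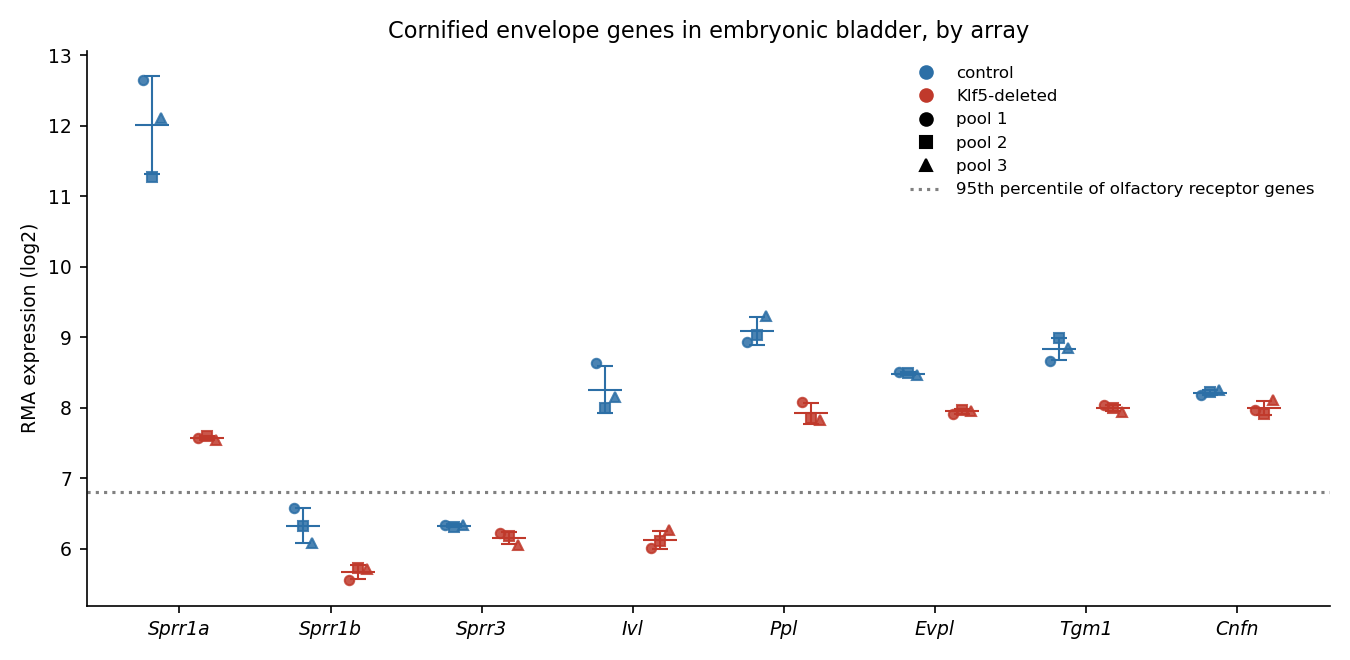
RMA expression (log2) of the 8 cornified envelope genes, with 1 point per array, horizontal lines for group means and error bars for the SD over 3 pools; the dotted line is the 95th percentile of olfactory receptor genes, at 6.80. Every red point lies below every blue point of its gene, Sprr1a is the most separated, and Sprr1b and Sprr3 lie under the dotted line on all 6 arrays.

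Among the small proline-rich genes, Sprr1a had the largest response of all genes measured. It read 12.65, 11.27 and 12.12 on the control arrays and 7.57, 7.59 and 7.54 on the Klf5-deleted arrays. The 3 control readings spread over 1.38 log2 units, with control 2 lowest, whereas the 3 Klf5-deleted readings lay within 0.05. The difference was -4.45 (SE 0.30, adjusted p = 0.0012 by limma), a 21.8-fold lower level with a 95% confidence interval of 13.4-fold to 35.5-fold. Without control 2 the difference was -4.82, and without Klf5-deleted 2 it was -4.46. The Klf5-deleted readings still lay above the olfactory receptor gauge on all 3 arrays.

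Sprr1b, a close paralog of Sprr1a, read 6.57, 6.32 and 6.08 on the control arrays and 5.55, 5.72 and 5.72 on the Klf5-deleted arrays. The groups did not overlap, but all 6 readings lay under the gauge. Its difference of -0.66 (SE 0.13, 95% confidence interval -0.96 to -0.37) came with an adjusted p of 0.0514 by limma. It passed without control 3, at an adjusted p of 0.0315, and with a variance trend in limma, at an adjusted p of 0.045; over the 6 fits that left out 1 array the adjusted p ran to 0.19. Whether probes of Sprr1b also bind Sprr1a transcripts was not tested.

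Sprr3, which codes for a small proline-rich protein of moist stratified epithelia such as the oesophagus, read 6.33, 6.31 and 6.34 in controls and 6.22, 6.18 and 6.05 in Klf5-deleted bladders. All 6 readings were under the gauge and the gap between the groups was 0.087. The difference of -0.18 (95% confidence interval -0.33 to -0.02, adjusted p = 0.292 by limma) passed in none of the 6 fits with 1 array left out.

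Ivl codes for involucrin, the glutamine-rich scaffold on which the envelope is built. It read 8.63, 7.99 and 8.15 on the control arrays and 6.003, 6.11 and 6.26 on the Klf5-deleted arrays. All 3 controls lay above the olfactory receptor gauge and all 3 Klf5-deleted arrays lay below it. The difference was -2.13 (SE 0.16, adjusted p = 0.00152 by limma), or 4.38-fold (95% confidence interval 3.36-fold to 5.69-fold), and 17 genes fell further. With the Klf5-deleted readings under the gauge, the fold is one against readings that cannot be told apart from the floor of the array.

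The plakin genes, whose products tie keratin filaments and desmosomes to the envelope, fell less. Ppl, coding for periplakin, read 8.93, 9.03 and 9.30 in controls and 8.08, 7.85 and 7.82 in Klf5-deleted bladders. The lowest control exceeded the highest Klf5-deleted array by 0.85, and the difference was -1.17 (SE 0.12, adjusted p = 0.00447 by limma), or 2.25-fold. Evpl, coding for envoplakin, which pairs with periplakin, was tight within both groups, at 8.503, 8.49 and 8.46 in controls and 7.91, 7.97 and 7.96 in Klf5-deleted bladders. Its difference of -0.54 (SE 0.06, adjusted p = 0.00597 by limma), or 1.45-fold, was smaller than that of Ppl, and the 95% confidence intervals, -0.67 to -0.40 for Evpl and -1.45 to -0.90 for Ppl, did not overlap; the difference between the 2 genes was not tested.

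Tgm1 codes for the membrane-bound transglutaminase that cross-links envelope proteins. It read 8.66, 8.98 and 8.84 on the control arrays and 8.03, 7.998 and 7.94 on the Klf5-deleted arrays. The groups were separated by 0.63, and the difference was -0.84 (SE 0.09, adjusted p = 0.00585 by limma), or 1.79-fold. Control 2 was the highest array for this gene, and without it the gap between group means came to -0.76 (adjusted p = 0.00664 by limma).

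Cnfn codes for cornifelin, a small cysteine-rich component of the envelope. It read 8.18, 8.22 and 8.24 in controls and 7.97, 7.91 and 8.11 in Klf5-deleted bladders. The groups were 0.069 apart, and the difference of -0.22 (95% confidence interval -0.38 to -0.05, adjusted p = 0.233 by limma) did not pass. The same 5 genes that fell over all arrays kept an adjusted p of 0.0414 or less in each of the 6 fits that left out 1 array, while the number of genes called over the whole array ranged from 141 to 349.

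**Figure D2:**
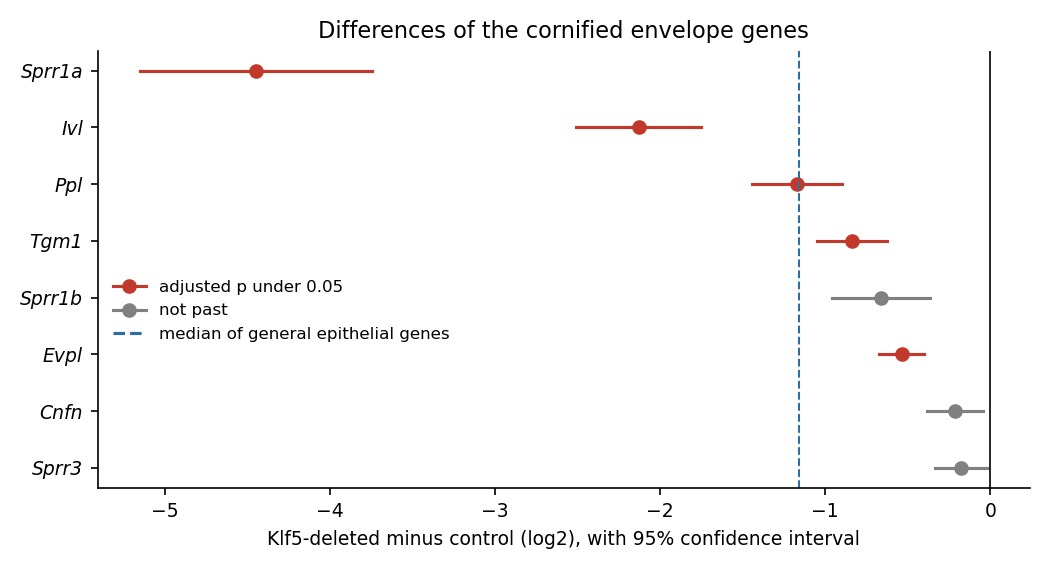
Log2 difference (Klf5-deleted minus control) of the 8 genes with 95% confidence intervals from limma; red genes had an adjusted p under 0.05, and the dashed line is the median difference of 13 general epithelial genes, -1.16. Sprr1a and Ivl lie to the left of the dashed line with their whole intervals, and Tgm1, Sprr1b, Evpl, Cnfn and Sprr3 lie to its right.

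Markers of epithelium in general moved with these genes. Of 13 measured general epithelial genes, such as Cdh1, Krt8 and Esrp1, 10 fell and none rose, with a median of -1.16, and 5 of 8 urothelial markers fell, with a median of -1.75. The mean of the 13 epithelial genes was 8.85 to 9.21 on the Klf5-deleted arrays and 9.999 to 10.40 on the control arrays. In whole bladders fewer epithelial cells and less RNA per epithelial cell cannot be told apart. Not every epithelial marker passed: Epcam differed by -0.39 (adjusted p = 0.521 by limma) and Trp63, a transcription factor of basal cells, differed by -0.24 (adjusted p = 0.384 by limma), and for both genes the groups overlapped.

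Set against the mean of the 13 epithelial genes on the same array, 2 of the 8 genes were still lower in every Klf5-deleted array. The share of all genes that did so is not given here. This subtraction moves every gene up alike, so that the median difference of all genes became 1.15 and that of the housekeeping genes 1.16, and a value above 0 shows only a smaller fall than that of the epithelial mean. The difference was then -3.29 for Sprr1a and -0.97 for Ivl. Ppl differed by -0.01 and its groups overlapped, so that it moved by the same amount as the epithelial mean. Relative to that mean, Tgm1 differed by 0.32 with overlapping groups. The values were 0.62 for Evpl, 0.50 for Sprr1b, 0.98 for Sprr3 and 0.94 for Cnfn, all below the median of all genes on this scale. These are differences of log2 values within arrays, given without a test. Sprr1b and Sprr3 were under the gauge on all 6 arrays. The 3 Klf5-deleted readings of Ivl were also under it, so its difference is one against readings that cannot be told apart from the floor.

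**Figure D3:**
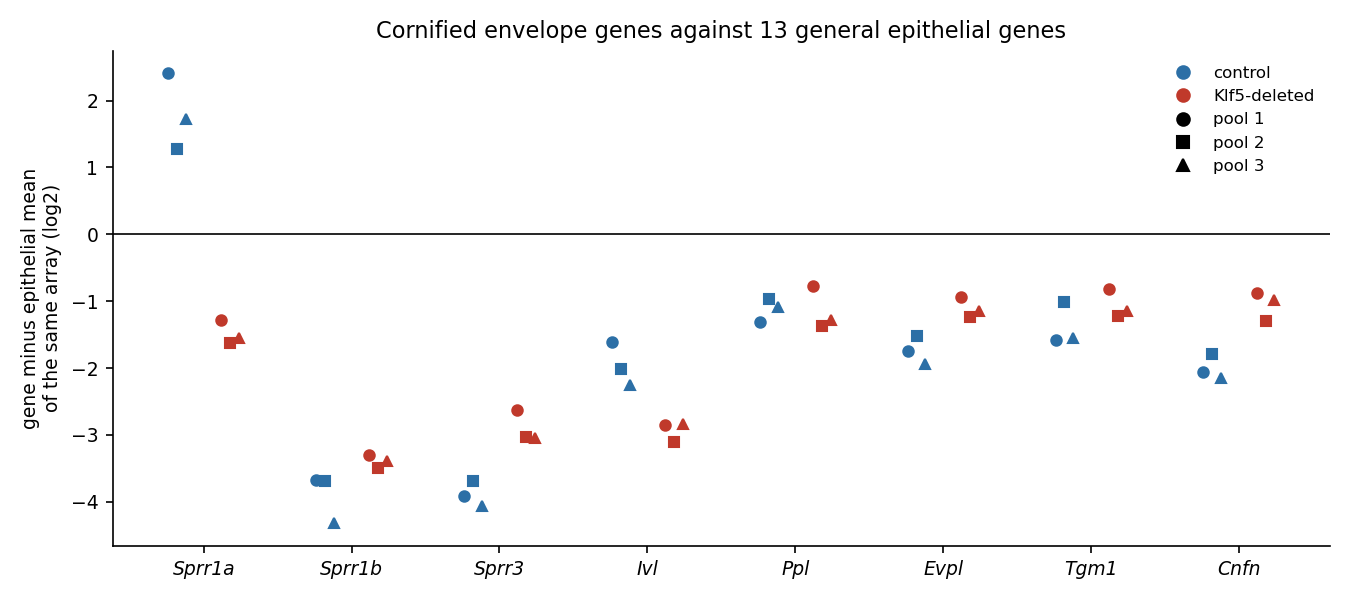
Log2 expression of each of the 8 genes minus the mean of 13 general epithelial genes on the same array, with 1 point per array; only the shift between groups within a gene can be read, as probes differ in affinity. Sprr1a and Ivl stay lower in all Klf5-deleted arrays, with the Klf5-deleted readings of Ivl under the olfactory receptor gauge, and Ppl and Tgm1 overlap. The subtraction moves the median difference of all genes to 1.15, so the positions of the other 4 above their controls show no rise.

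Of the other envelope proteins most could not be followed at the levels measured. Of 51 measured genes of this list, among them the Lce, Flg2, Hrnr and Crnn genes and the Sprr2 genes with a feature of their own, 1 fell, none rose and 50 did not pass, with a median difference of -0.062. The share that fell was close to the 1.59% over all genes. Of the 51 genes 35 had a mean reading under the olfactory receptor gauge of 6.80, against 2 of the 8 described above, and a fall of such genes was hardly measurable. The list leaves out features shared by several Sprr2a genes, which fell by 1.90 and by 1.76 (adjusted p = 0.00909 and 0.00917 by limma over all features). Anxa1, coding for a phospholipid-binding annexin found in envelopes, was the gene that fell, by 0.91 (SE 0.11, adjusted p = 0.00982 by limma), from readings of 10.06, 10.02 and 9.72 in controls to 8.99, 9.17 and 8.92; without Klf5-deleted 1 its adjusted p was 0.0599 and no gene of the list passed. Lor, coding for loricrin, the main envelope protein of epidermis, read 7.63 to 7.91 in Klf5-deleted and 7.79 to 7.92 in control bladders, with a difference of -0.04 (SE 0.09, adjusted p = 0.885 by limma).

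Along chromosome 3 the genes that fell were interspersed with genes that did not pass, most of them dim. RefSeq lists 70 protein-coding genes from S100a1 to S100a10, the stretch that holds the complex, and 60 of them were measured, 38 with a mean under the gauge. Sprr2a1, Sprr2a2 and Sprr2a3, whose shared features fell, are among the genes of this stretch with no feature of their own. Of the 60 measured genes 6 fell, against 1.59% of all genes, none rose and 54 did not pass. Those that fell were Sprr1a and Ivl in the middle, and S100a6, S100a14, S100a16 and S100a1 near one end. Sprr1a and Ivl are members chosen with their differences known, so this count is no test of the stretch. The S100 genes code for small calcium-binding proteins and were singled out after their values were seen. S100a6 fell by 1.86 (SE 0.14), S100a14 fell by 1.504 (SE 0.14), S100a16 fell by 0.77 (SE 0.08) and S100a1 fell by 0.73 (SE 0.12), with adjusted p between 0.00156 and 0.0316 by limma; S100a1 passed in none of the 6 fits with 1 array left out. Between Sprr1b and Ivl the order is Sprr1b, Sprr3, Sprr1a, Sprr4 and Ivl, and the differences in that order were -0.66, -0.18, -4.45, 0.03 and -2.13. Sprr3 and Sprr1b were under the gauge on all 6 arrays, so their differences do not show whether they responded less than Sprr1a; Sprr4 averaged 7.17 in Klf5-deleted and 7.14 in control bladders.

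**Figure D4:**
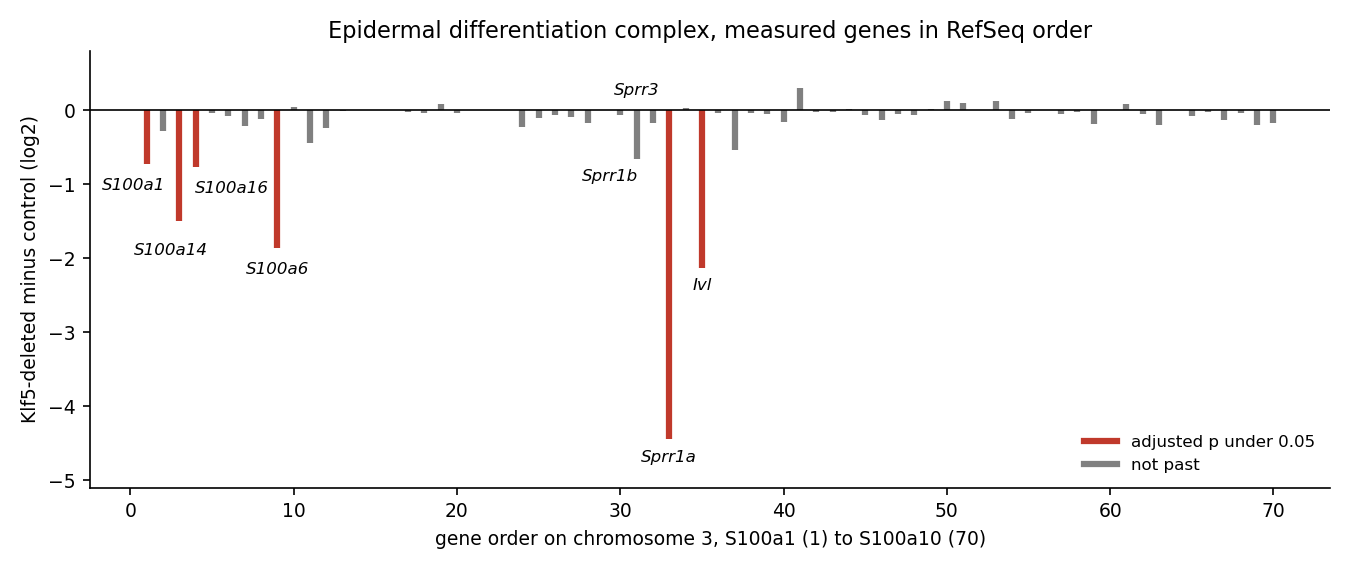
Log2 difference (Klf5-deleted minus control) of the 60 measured genes among 70 in RefSeq order on chromosome 3, from S100a1 to S100a10; red bars had an adjusted p under 0.05. The bars of Sprr1a and Ivl stand among genes with differences near 0, many of them under the olfactory receptor gauge, and 4 S100 genes at the left end fell.

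The enzymes and partners of the envelope proteins were followed in lists by role. None of 8 other transglutaminases passed, and their median difference was 0.007. The largest differences were those of F13a1, coding for the A chain of coagulation factor XIII, at -0.42 (adjusted p = 0.264 by limma), and of Tgm2, coding for tissue transglutaminase, at -0.21 (adjusted p = 0.50 by limma), and for both the groups overlapped. Tgm1 was thus the transglutaminase gene that passed, but 3 of the other 8 had a mean under the gauge, where a fall was hardly measurable. Of 17 other plakins and desmosomal partners 2 fell, with a median of -0.217: Perp, a desmosomal membrane protein of stratified epithelia, fell by 1.13 (SE 0.08, adjusted p = 0.0014 by limma), and Jup, coding for plakoglobin, fell by 0.43 (SE 0.08, adjusted p = 0.0453 by limma). Jup lost its call in every fit that left out 1 array.

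Of 14 measured genes of the lipid envelope, the ceramide layer bound to the outside of the protein shell, 2 fell, with a median of -0.097. Cers3, the ceramide synthase for very long fatty acids, read 9.38, 8.75 and 9.45 in controls and 7.13, 7.43 and 7.09 in Klf5-deleted bladders, a difference of -1.98 (SE 0.19, adjusted p = 0.00383 by limma). Cyp4f39, coding for a fatty acid hydroxylase of the same pathway, fell by 0.68 (SE 0.12, adjusted p = 0.0381 by limma), and its call was lost without any single array other than control 3. The lipoxygenases and lipid transporters of the list, such as Aloxe3 and Abca12, did not pass. Of the 14 genes 6 had a mean under the gauge, Aloxe3 and Abca12 among them, and a fall of such genes was hardly measurable.

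Of 20 proteases and inhibitors that act around the envelope 6 fell, with a median of -0.19, and 4 fell without Klf5-deleted 1 or Klf5-deleted 2. Spint2 and St14, which both fell, are also among the 13 general epithelial genes, so the lists are not separate. Spint1 and Spint2, Kunitz-type inhibitors of membrane serine proteases, fell by 1.88 (SE 0.20) and by 1.08 (SE 0.10), the membrane serine protease gene Tmprss13 fell by 1.39 (SE 0.09) and Serpinb5, coding for maspin, fell by 1.35 (SE 0.17), with adjusted p between 0.00119 and 0.0105 by limma. Without Klf5-deleted 1 or Klf5-deleted 2 the adjusted p of Serpinb5 was 0.0641 and 0.0581, and its 3 Klf5-deleted readings lay under the gauge.

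Of 29 measured transcription factors known to act on envelope or barrier genes 8 fell and none rose, with a median of -0.24; the count was 5 without Klf5-deleted 1. Klf5 is 1 of the 8. Grhl2, which did not pass, is also among the 13 general epithelial genes. The ETS factors Ehf and Elf3 fell by 1.87 (SE 0.24) and by 1.60 (SE 0.11), the nuclear receptor gene Pparg fell by 1.78 (SE 0.17), and Grhl3, a factor of the epidermal barrier, fell by 1.38 (SE 0.15), with adjusted p between 0.00138 and 0.0113 by limma. Ehf lost its call without Klf5-deleted 1 or Klf5-deleted 2, with adjusted p of 0.0645 and 0.0597.

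**Figure D5:**
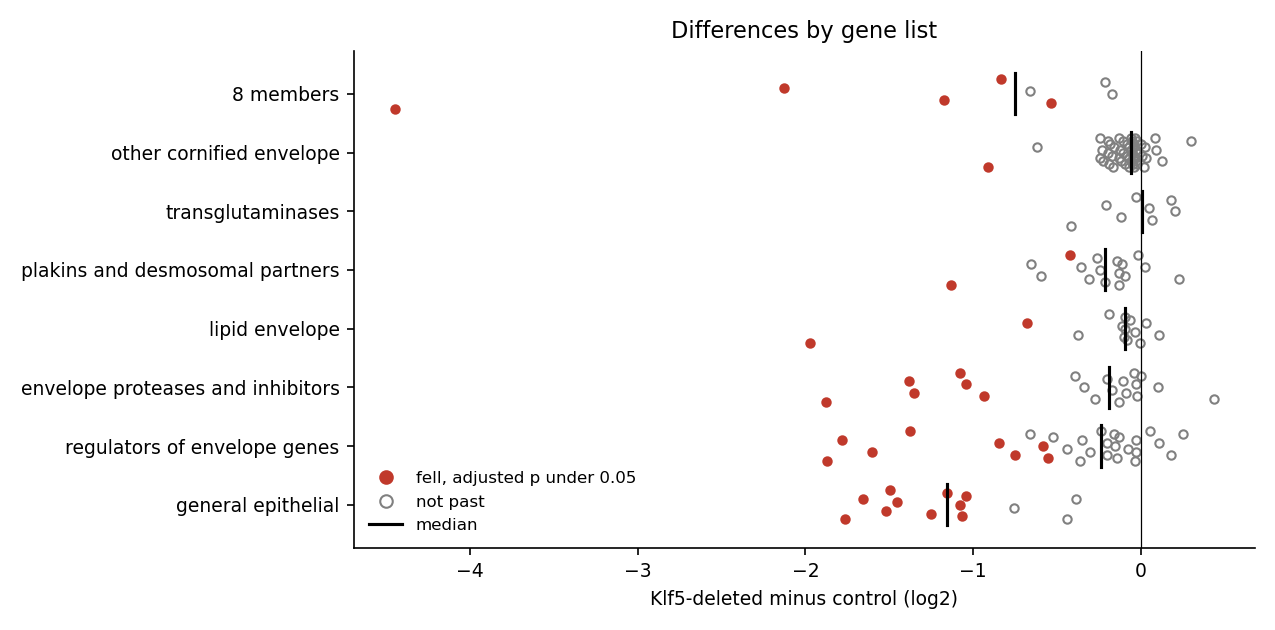
Log2 difference (Klf5-deleted minus control) of each measured gene by list, with 1 circle per gene, filled where it fell with an adjusted p under 0.05; black lines are medians. The other envelope genes, 35 of 51 under the olfactory receptor gauge, cluster around 0, at a median of -0.062, and the general epithelial genes lie mostly between -1 and -2.

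Markers of other squamous tissues, epidermis and the periderm and squamous mucosa, had median differences of -0.14 and -0.19. In each list 4 of 10 genes had a mean under the gauge, where a fall was hardly measurable. These medians therefore do not show that such tissues differed little. Of all 19938 genes, 10674 read lower. All 10 epidermal markers read lower in Klf5-deleted bladders and none passed. Their mean ranged from 7.11 to 7.38 on the Klf5-deleted arrays and from 7.36 to 7.67 on the control arrays, highest on control 2. Krt1 differed by -0.66 (adjusted p = 0.286 by limma) and Krt10 by -0.58 (adjusted p = 0.255 by limma), with overlapping groups and the highest readings, 9.20 and 9.25, on control 2, where Tgm1 was also highest. Krtdap, a marker of differentiating keratinocytes chosen after its values were seen, differed by -0.62 and was highest on control 1, as were Sprr1a and Ivl. The other epidermal markers with a mean above the gauge, Krt77, Krt14 and Lor, differed by -0.41, -0.14 and -0.04. On control 2, where the mean of the epidermal markers was highest, Sprr1a and Ivl were lowest among the controls, at 11.27 and 7.99. All 10 markers of periderm and squamous mucosa also read lower, and 1 of them fell: Krt4, a keratin of moist squamous epithelia, read 9.05, 9.43 and 8.41 in controls and 7.27, 6.80 and 7.53 in Klf5-deleted bladders, a difference of -1.77 (adjusted p = 0.0245 by limma). No gene of that list, Krt4 included, passed without Klf5-deleted 1, Klf5-deleted 2 or control 1. Besides Krt4, no gene of that list with a mean above the gauge passed over all arrays. Of these, Ly6d differed by -0.58, Dmkn by -0.49, Sbsn by -0.39, Krt78 by -0.08 and Krt17 by -0.04. The mean of that list was 6.85 to 7.01 on the Klf5-deleted arrays and 7.17 to 7.50 on the control arrays. The part of such tissues in the members' readings was not tested.

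The genes whose readings over the 6 arrays were most like those of Sprr1a, by Pearson's correlation, were Anxa8, G6pd2, Aldh1a7, Paqr5 and Pof1b, with r from 0.9981 to 0.9985 over 6 arrays. These values describe 6 points in 2 separate groups that share the genotype difference. Aldh1a7 fell by 3.02, Pof1b fell by 1.31, Paqr5 fell by 1.17 and Anxa8 fell by 1.12; the Klf5-deleted readings of Aldh1a7 and Pof1b lay under the gauge on all 3 arrays, as those of Ivl did. G6pd2, a close copy of the gene G6pdx that the array may not separate from it, differed by -0.27 with an adjusted p of 0.0813 by limma. Among the members r with Sprr1a was highest for Ivl, at 0.9947, and lowest for Cnfn, at 0.8381.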

How the data were processed

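Each of 6 bladder pools gave 1 Affymetrix Mouse Gene 1.0 ST array. The deposited values are log2 expression per feature from RMA, a method of background correction, quantile normalization and probe summary, per the submitters' processing notes. Their range, 3.24 to 14.6, is that of a log2 scale. The RMA version and settings and the genome build were not given in the labels used here. Scanner files were not used here, so detection could not be called, and the number of arrays limits the precision.

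Of 35557 features, 21789 had a single gene symbol in the platform annotation, 1621 several and 12147 none here. For each of 19938 genes the single-symbol feature with the highest mean was used. Groups came from the genotype labels. Klf5-deleted minus control was fitted with limma 3.58.1 in R 4.3.3 (lmFit, eBayes without trend, two-sided) over all genes with Benjamini-Hochberg adjustment. Data were also simulated with independent normal noise and 200 changed genes, as many raised as lowered. On these simulated data the fit recovered 97% of 2-fold changes and 63.8% of smaller ones, and 6.07% of its calls were false. These rates belong to that setting and are not error rates of the real arrays. With 3 arrays per group the smallest exact permutation p would be 0.1. The members and gene lists were chosen with earlier results of these data known. Besides the members, genes were named by rule: up to 4 past the threshold per list, by size (2 where none passed), the 5 genes most correlated with Sprr1a, and tissue markers; the S100 genes, Sprr4, Krtdap, Gzmd and the features of several Sprr2 genes were chosen after their values were seen. Alternatives were each array left out, a replicate block, a variance trend, array weights, other centrings, a filter on dim genes, feature averages and all features.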

Additional observations from a re-analysis of the deposited data

How the results depend on the processing

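Of the 8 genes, 5 were called in each fit that left out 1 array, except 6 without control 3, and also with array weights, with arrays centred on their medians or on housekeeping genes, with feature averages and over all features; the variance trend called 6. Over all genes 395 passed, or 141 to 349 with 1 array left out: dropping Klf5-deleted 1, 2 or 3 gave 141, 172 and 253 genes, and dropping control 1, 2 or 3 gave 165, 349 and 261. Of the other envelope genes 0 to 1 passed with 1 array left out, and 2 with centring on housekeeping genes. Adjusting over all 35557 features left 218 features. Whether replicate numbers pair the samples is not known. The deviations of same-numbered arrays correlated at 0.009, 0.031 and 0.079, and those of differently numbered arrays at -0.053 to 0.011, which does not settle it. With the replicate number as a block 110 genes and 3 of the 8 passed, with Ppl at an adjusted p of 0.0504 and Evpl at 0.0571 by limma. The difference of Lor ran from -0.0997 to 0.0389 with 1 array left out, positive when that array was Klf5-deleted 1, and was 0.0029 with centring on housekeeping genes.

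Centring on the epithelial mean adds a shift to every gene: the median of all genes became 1.15, 19731 genes and 50 of the other envelope genes passed, and all genes received nearly the same SE, so calls in that fit are not read as results. Relative to the epithelial mean the following differences turned positive: Sprr1b 0.50, Sprr3 0.98, Evpl 0.62, Tgm1 0.32, Cnfn 0.94, Anxa1 0.25, F13a1 0.74, Tgm2 0.95, Perp 0.0296, Jup 0.74, Cyp4f39 0.48, Spint2 0.0807, Anxa8 0.0425, G6pd2 0.89, Klf5 0.57, Epcam 0.77, Trp63 0.92, Krt1 0.50, Krt10 0.58, Lor 1.12, S100a1 0.43 and S100a16 0.39. Fits with 1 array left out have fewer samples; the cause of the other changes was not tested.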

Other observations

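Some features of the array are annotated with several Sprr2 genes and were left out of the gene comparison, so no single gene can be named from them; they were looked at after the values of the other genes were seen. A feature shared by Sprr2a1, Sprr2a2, Sprr2a3 and Sprr2b read 11.05, 10.49 and 10.89 on the control arrays and 8.86, 8.95 and 8.94 on the Klf5-deleted arrays. The groups did not overlap, and the difference was -1.90 (SE 0.14, adjusted p = 0.00909 by limma over all 35557 features). A second feature, shared by Sprr2a1 and Sprr2a3 and listed under 2 identifiers with identical values, read 9.95, 9.42 and 9.69 in controls and 7.86, 7.91 and 7.996 in Klf5-deleted bladders, a difference of -1.76 (SE 0.14, adjusted p = 0.00917 by limma over all features). Without any 1 of the Klf5-deleted arrays the adjusted p of both features lay between 0.0601 and 0.078, and without any 1 of the control arrays between 0.00348 and 0.0371. The Sprr2 genes with a feature of their own, Sprr2b and Sprr2d among them, did not pass, with differences of -0.23 and -0.11. Like Sprr1a, these shared features read lowest among the controls on control 2.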
